A study of Homo sapiens with 10 samples.

Results

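Protein folding in the endoplasmic reticulum (ER) was examined through 10 genes of the unfolded protein response: HSPA5, HSP90B1, CALR, PDIA4, DNAJB9, DNAJC3, HERPUD1, SDF2L1, XBP1 and ATF6. They were chosen by name, as lumenal chaperones, co-chaperones, a degradation factor and the transcription factors XBP1 and ATF6, and the choice was made with earlier results of these data known. All 10 were found among the 57445 gene identifiers of the count tables, 51488 of which matched a symbol, and all 10 passed the filter on low counts that left 18478 genes.

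The cells were PC3, a human prostate cancer line, grown in DMEM/F-12 with 10% fetal bovine serum. RNA-seq counts came from 10 libraries in 5 groups of 2. Scramble cells stably expressed a control hairpin, and the groups RNF2 shRNA1 and RNF2 shRNA2 stably expressed 1 of 2 short hairpin RNAs named for RNF2, which encodes the RING1B ubiquitin ligase of Polycomb repressive complex 1 (PRC1). Further groups were exposed for 48 hours to PRT4165, known as an inhibitor of the ubiquitin ligase activity of PRC1, or to GW-516, a compound that the labels give by code name only. The labels give no dose, no vehicle group, no vector and no statement on clones or on separate cultures, so p-values measure only the spread between these libraries, and effects of a compound cannot be told apart from those of vehicle or of culture without a hairpin. The study's title places the work in metastasis of double-negative prostate cancer driven by PRC1.

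Total counts ran from 65877850 to 108380198 per library. Levels are given as CPM, counts scaled to a common library size with TMM normalization, and differences as log2 fold changes with their standard error (SE). A gene was called, and is said to rise or fall, at an adjusted p below 0.05 in edgeR's quasi-likelihood test over all genes tested. The labels name PC3 throughout, whereas the headers of the count tables name every library MDV3, and nothing in the sources used here explains this. KRT8, KRT18, KRT19, EPCAM and CDH1, markers of an epithelial line, were each above 1 CPM in every library, and neuroendocrine and blood markers stayed at or under 0.693 CPM. Of the stromal and endothelial markers only COL1A1 was present (15.2 to 46.9 CPM). CTNNA1, a gene known to be deleted in PC3, measured 0.440 to 1.03 CPM. RNF2 measured 30.6 and 28.3 CPM in Scramble and fell to 12.1 and 12.0 CPM in RNF2 shRNA1 (log2 fold change -1.29, SE 0.059, adjusted p = 2.3e-15). It was higher than in Scramble where the libraries are labelled RNF2 shRNA2, at 33.5 and 35.3 CPM (0.23, SE 0.052, adjusted p = 0.0010), while BMI1, another PRC1 subunit gene, fell from 251 and 255 to 53.0 and 61.6 CPM (-2.14, SE 0.054). The measured RNF2 therefore goes against that label, and no direction below is attributed to loss of RNF2 in those libraries. The paired libraries of Scramble, RNF2 shRNA1 and GW-516 were nearly identical: their chi-square per degree of freedom over genes was 2.15 to 2.20, or 1.08 to 1.10 when halved for counting both read ends, against 6.89 in PRT4165 and 12.2 in the libraries labelled RNF2 shRNA2. Counts of calls are therefore also given with each of those 3 near-identical pairs summed to 1 sample. The halved values of those pairs lie near 1, as counting noise alone would give, so the pairs show little spread beyond it. Unless the pairs are said to be summed, standard errors, intervals and adjusted p-values treat each library as its own sample. They may therefore understate the spread between separate cultures.

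The ER lumen is where secreted and membrane proteins fold. BiP, the HSPA5 product, binds exposed hydrophobic stretches of unfolded chains, uses J-domain partners such as the DNAJB9 and DNAJC3 products, and holds the stress sensors IRE1 (ERN1), PERK (EIF2AK3) and ATF6 inactive. Under load, ATF6 travels to the Golgi, is cut by site-1 and site-2 proteases and releases a transcription factor, while IRE1 splices XBP1 mRNA so that it encodes an active factor; both factors act on promoters with ER stress response elements (ERSE). Counts per gene, as used here, do not separate spliced from unspliced XBP1 mRNA, nor cleaved from intact ATF6 protein.

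Promoter windows of 250 bases before to 50 bases after the start were searched on both strands in RefSeq sequence (build GRCh38.p14) for 3 motifs: ERSE (CCAAT, 9 bases of any kind, CCACG), ERSE-II (ATTGG, 1 base of any kind, CCACG) and the ACGTG core. ERSE was found in 27 of 35116 windows (0.0769%) and in those of 4 of the 10 genes, HSPA5, HSP90B1, CALR and XBP1. ERSE-II was found in 19 windows (0.0541%), among them HERPUD1 and SDF2L1. These percentages count windows and not genes, and the 10 genes were chosen by name, so no enrichment was tested. The 5-base ACGTG core, which 21.4% of windows hold, was present in 6 of the 10, and in DNAJB9 it formed 2 palindromes. The stretches below carry those motifs in capitals, or their reverse complement where the motif lies on the other strand, each with 25 flanking bases; in HERPUD1 an ACGTG core on the other strand shares bases with the ERSE-II.
HSPA5 (chr9:125241366-125241434, reverse strand): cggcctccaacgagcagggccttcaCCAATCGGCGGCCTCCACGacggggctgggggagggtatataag
HSP90B1 (chr12:103930191-103930364, forward strand): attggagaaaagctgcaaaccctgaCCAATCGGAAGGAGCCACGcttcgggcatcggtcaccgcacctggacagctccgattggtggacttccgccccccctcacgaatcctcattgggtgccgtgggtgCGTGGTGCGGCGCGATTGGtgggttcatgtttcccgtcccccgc
CALR (chr19:12938359-12938427, forward strand): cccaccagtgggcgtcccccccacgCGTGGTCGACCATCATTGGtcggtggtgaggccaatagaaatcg
XBP1 (chr22:28800578-28800646, reverse strand): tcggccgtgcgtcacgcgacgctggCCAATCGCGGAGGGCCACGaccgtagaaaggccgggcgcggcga
HERPUD1 (chr16:56932000-56932060, forward strand): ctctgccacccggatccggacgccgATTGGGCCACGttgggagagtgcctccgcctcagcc
SDF2L1 (chr22:21642089-21642149, forward strand): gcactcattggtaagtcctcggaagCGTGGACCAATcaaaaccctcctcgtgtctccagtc
DNAJB9 (chr7:108569776-108569855, forward strand): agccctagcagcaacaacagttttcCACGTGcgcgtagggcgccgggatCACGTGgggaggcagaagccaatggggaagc

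In HSPA5 the ERSE ended 48 bases before the start site, and in XBP1 34 bases before it. HSP90B1 held 2 ERSEs, on opposite strands. The windows of PDIA4, DNAJB9, DNAJC3 and ATF6 held neither ERSE nor ERSE-II, which says only that these letters are not in those windows.

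Per kilobase of exon (RPKM), CALR was the most abundant of the 10 in Scramble, at 400 RPKM ± 3.2 (SD, n = 2), followed by HSP90B1 at 298 ± 0.31 and HSPA5 at 272 ± 1.1. PDIA4 stood at 120 RPKM. SDF2L1 (28.1), XBP1 (23.8), HERPUD1 (16.9) and ATF6 (15.4 RPKM) formed a middle range, and the J-domain genes DNAJC3 (5.53) and DNAJB9 (3.81 RPKM) were lowest. The order at the top was different in RNF2 shRNA1, where HSPA5 reached 427 RPKM against 393 for CALR and 377 for HSP90B1. Summed over the 10 genes, expression was 4279 and 4274 CPM in Scramble, 5375 and 5411 in RNF2 shRNA1, 3875 and 3815 in PRT4165, 4157 and 4157 in GW-516 and 3857 and 3906 in the libraries labelled RNF2 shRNA2. The 4 most abundant genes supplied 90.3% to 92.1% of that sum in every library, so it describes the chaperones far more than the rest. In such bulk RNA, less RNA per cell cannot be told apart from fewer cells of a kind.

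**Figure D1:**
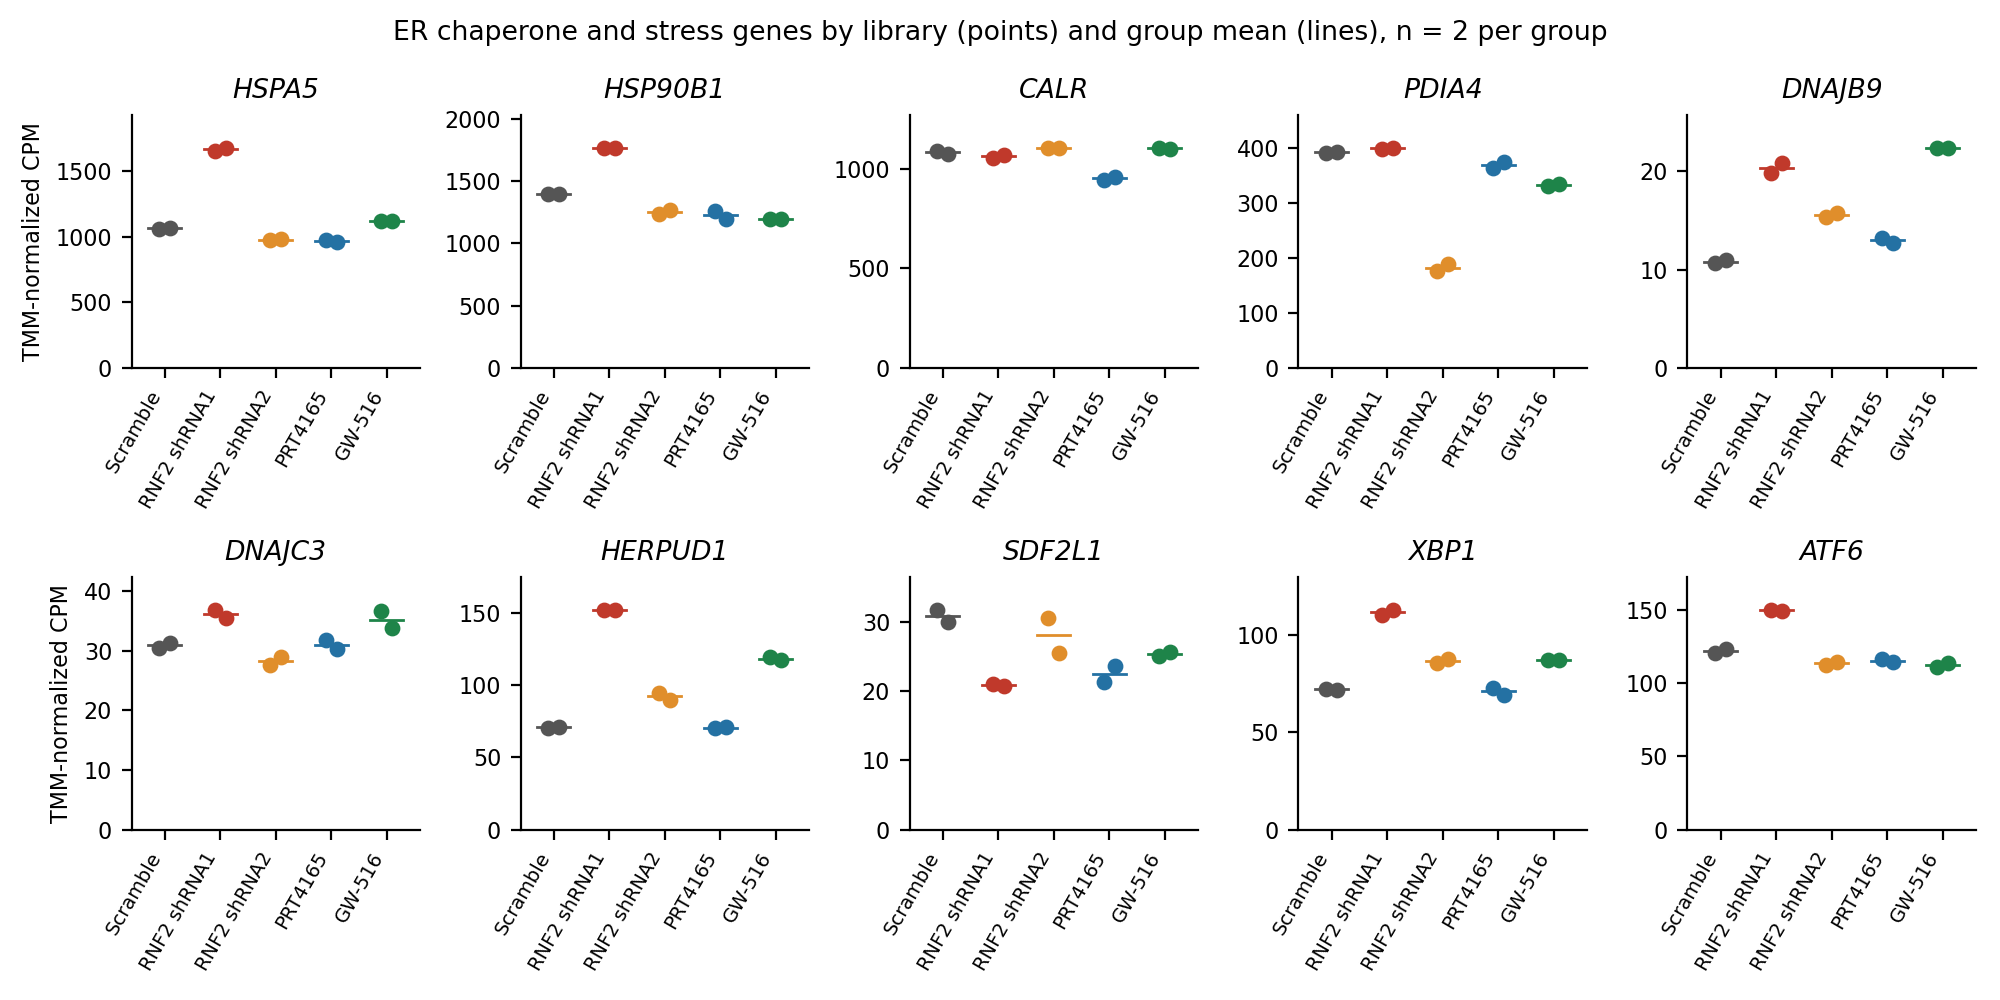
Level of each of the 10 genes in TMM-normalized CPM (linear axis from 0) by group; points are libraries and lines are group means, 2 libraries per group. HSPA5 is highest in RNF2 shRNA1 (1657 and 1679 CPM), PDIA4 is lowest in the libraries labelled RNF2 shRNA2 (175 and 188 CPM), and DNAJB9 is lowest in Scramble (10.6 and 11.0 CPM).

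Among the major chaperones, HSPA5 (ENSG00000044574.7, GRCh37 chr9:127997132-128003609) carried the largest change in CPM. It measured 1061 and 1067 CPM in Scramble, 1657 and 1679 in RNF2 shRNA1, 975 and 959 in PRT4165, 1116 and 1121 in GW-516 and 974 and 980.0 in the libraries labelled RNF2 shRNA2. Only RNF2 shRNA1 stood far above the rest, and PRT4165 overlapped the libraries labelled RNF2 shRNA2. HSPA5 rose 1.57-fold in RNF2 shRNA1 (log2 fold change 0.65, SE 0.023, adjusted p = 1.8e-17). The other changes from Scramble passed the test but were small: -0.12 in the libraries labelled RNF2 shRNA2, -0.14 in PRT4165 and 0.07 in GW-516 (SE 0.023 each). None of these 3 passed with the near-identical pairs summed (adjusted p = 0.064, 0.068 and 0.40), and the GW-516 call was also lost without the first Scramble library (adjusted p = 0.066).

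HSP90B1 (ENSG00000166598.8, chr12:104323885-104347423) encodes GRP94, the ER paralog of HSP90, which folds integrins and Toll-like receptors. Its libraries held 1399 and 1397 CPM in Scramble, 1771 and 1767 in RNF2 shRNA1, 1265 and 1197 in PRT4165, 1199 and 1198 in GW-516 and 1236 and 1269.8 in the libraries labelled RNF2 shRNA2. RNF2 shRNA1 was again the only group above Scramble, and the other 3 groups lay below it, each overlapping its neighbour in order of level. The rise in RNF2 shRNA1 was 1.27-fold (0.34, SE 0.025, adjusted p = 2.6e-11), and the falls were -0.18 in PRT4165, -0.22 in GW-516 and -0.16 in the libraries labelled RNF2 shRNA2 (SE 0.025 each, adjusted p at most 1.5e-05). All 4 calls held with the pairs summed. HSP90B1 has near-identical processed pseudogenes, and no source used here gives how reads matching several places were handled, so its counts are uncertain to that extent.

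CALR (ENSG00000179218.9, chr19:13049392-13055303) encodes calreticulin, the lectin chaperone that holds monoglucosylated glycoproteins and stores calcium. It varied least of the 10, with 1091 and 1079 CPM in Scramble, 1057 and 1073 in RNF2 shRNA1, 946 and 963 in PRT4165, 1109 and 1103 in GW-516 and 1105 and 1105 in the libraries labelled RNF2 shRNA2. PRT4165 lay apart below the rest, and the highest group mean was only 1.16 times the lowest. CALR fell in PRT4165 (-0.19, SE 0.023, adjusted p = 3.6e-07). Against Scramble it was not called in RNF2 shRNA1 (-0.03, 95% interval -0.07 to 0.02), in the libraries labelled RNF2 shRNA2 (0.03, interval -0.02 to 0.07) or in GW-516 (0.03, interval -0.02 to 0.07). The GW-516 value was called in 2 alternatives, with a filter of 1 CPM in 2 libraries (0.07, adjusted p = 0.012) and with only the compared groups in the fit (0.04, adjusted p = 1.9e-05).

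PDIA4 (ENSG00000155660.6, chr7:148700154-148725733), a disulfide isomerase also called ERp72, followed a different pattern. It measured 391 and 393 CPM in Scramble, 399 and 401 in RNF2 shRNA1, 363 and 375 in PRT4165, 332 and 335 in GW-516 and 175 and 188 in the libraries labelled RNF2 shRNA2. No 2 groups overlapped, and the libraries labelled RNF2 shRNA2 stood far below the others. There PDIA4 was 2.16-fold lower than Scramble (-1.11, SE 0.031, adjusted p = 1.8e-18), while in RNF2 shRNA1, where HSPA5 and HSP90B1 rose, it was not called (0.03, interval -0.03 to 0.09). It also fell in GW-516 (-0.23, SE 0.030, adjusted p = 4.2e-07). The fall in PRT4165 (-0.09, SE 0.030, adjusted p = 0.023) was lost without the first Scramble library (adjusted p = 0.18), without the second (0.25), without the first PRT4165 library (0.24) and with the pairs summed (0.37). With all libraries kept it was also lost under RLE factors (0.059), DESeq2 (0.083), no filter on low counts (0.10) and only the groups compared (0.054).

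The J-domain co-chaperones were scarce, and of the pair DNAJB9 moved more. DNAJB9 (ENSG00000128590.4, chr7:108210012-108215294) encodes ERdj4, which returns BiP to IRE1 and so restrains it. It measured 10.6 and 11.0 CPM in Scramble, 19.9 and 20.9 in RNF2 shRNA1, 13.2 and 12.8 in PRT4165, 22.4 and 22.4 in GW-516 and 15.4 and 15.8 in the libraries labelled RNF2 shRNA2. No groups overlapped, and all 8 other libraries exceeded both Scramble libraries. The rise from Scramble was 2.07-fold in GW-516 (1.05, SE 0.063, adjusted p = 4.1e-13), 1.88-fold in RNF2 shRNA1 (0.91, SE 0.064, adjusted p = 8.5e-12), 1.20-fold in PRT4165 (0.27, SE 0.066, adjusted p = 0.0019) and 1.44-fold in the libraries labelled RNF2 shRNA2 (0.53, SE 0.064). All 4 rises were also called with the pairs summed. Of its exon bases, 6.45% lie opposite PNPLA8 and THAP5, which were counted on their own strand.

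DNAJC3 (ENSG00000102580.10, chr13:96329393-96447243) encodes p58IPK, a BiP co-chaperone also known to bind and inhibit PERK. Its levels were 30.4 and 31.4 CPM in Scramble, 36.9 and 35.4 in RNF2 shRNA1, 31.8 and 30.3 in PRT4165, 36.7 and 33.8 in GW-516 and 27.7 and 29.0 in the libraries labelled RNF2 shRNA2. RNF2 shRNA1 and GW-516 overlapped each other at the top, and PRT4165 overlapped Scramble. DNAJC3 rose in RNF2 shRNA1 (0.23, SE 0.053, adjusted p = 0.00068) and in GW-516 (0.19, SE 0.052, adjusted p = 0.0032), the second of which was lost without the first GW-516 library (adjusted p = 0.070) and with the pairs summed (0.089). In the libraries labelled RNF2 shRNA2 it was not called (-0.12, SE 0.053, adjusted p = 0.062), except without the second of them (-0.17, adjusted p = 0.030) and in 2 other alternatives. For PRT4165 the difference was 0.01, interval -0.10 to 0.12.

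SDF2L1 (ENSG00000128228.4, chr22:21996550-21998587) encodes a lumenal partner of the J-domain proteins that keeps BiP clients from aggregating. In RNF2 shRNA1 and GW-516 it changed in the direction opposite to DNAJB9 and DNAJC3. SDF2L1 measured 31.8 and 30.1 CPM in Scramble, 21.0 and 20.7 in RNF2 shRNA1, 21.3 and 23.7 in PRT4165, 25.1 and 25.7 in GW-516 and 30.7 and 25.5 in the libraries labelled RNF2 shRNA2. Scramble was highest, and the libraries labelled RNF2 shRNA2 overlapped both Scramble and GW-516. SDF2L1 was 1.48-fold lower in RNF2 shRNA1 (-0.57, SE 0.074, adjusted p = 2.6e-06) and 1.38-fold lower in PRT4165 (-0.46, SE 0.073, adjusted p = 4.4e-05). In GW-516 it fell by 0.28 (SE 0.072, adjusted p = 0.0024, or 0.059 with the pairs summed). Between the libraries labelled RNF2 shRNA2 and Scramble the difference was -0.15 (adjusted p = 0.11), which became -0.28 (adjusted p = 0.00066) without the first of those libraries. SDF2L1 was the only 1 of the 10 that fell in RNF2 shRNA1.

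HERPUD1 (ENSG00000051108.10, chr16:56965960-56977798) encodes Herp, a membrane scaffold of the HRD1 complex that sends misfolded proteins to the proteasome. It gave 70.6 and 70.7 CPM in Scramble, 152 and 152 in RNF2 shRNA1, 70.0 and 70.7 in PRT4165, 119 and 117 in GW-516 and 94.4 and 89.8 in the libraries labelled RNF2 shRNA2. PRT4165 overlapped Scramble, and the other 3 groups were higher and apart from each other. The rises were 2.15-fold in RNF2 shRNA1 (1.11, SE 0.035, adjusted p = 2.6e-18), 1.67-fold in GW-516 (0.74, SE 0.035, adjusted p = 4.5e-15) and 1.30-fold in the libraries labelled RNF2 shRNA2 (0.38, SE 0.035, adjusted p = 2.6e-09), and each held with the pairs summed. In PRT4165 the value was -0.01, with an interval from -0.08 to 0.07, so any change there was smaller than those. HERPUD1 and SDF2L1, both with ERSE-II in the windows printed above, thus differed in direction in RNF2 shRNA1 and GW-516.

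Of the transcription factors, XBP1 (ENSG00000100219.12, chr22:29190543-29196585) followed an order of group means like that of HERPUD1. It measured 72.2 and 71.9 CPM in Scramble, 110.3 and 113 in RNF2 shRNA1, 72.9 and 69.5 in PRT4165, 87.3 and 87.0 in GW-516 and 85.4 and 87.8 in the libraries labelled RNF2 shRNA2. PRT4165 overlapped Scramble, and GW-516 overlapped the libraries labelled RNF2 shRNA2. XBP1 mRNA rose 1.55-fold in RNF2 shRNA1 (0.63, SE 0.036, adjusted p = 2.1e-13), 1.21-fold in GW-516 (0.27, SE 0.036, adjusted p = 5.1e-07) and 1.20-fold in the libraries labelled RNF2 shRNA2 (0.27, SE 0.036, adjusted p = 1.7e-06), all called with the pairs summed. The PRT4165 value was -0.02, with an interval from -0.09 to 0.06.

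ATF6 (ENSG00000118217.5, chr1:161736084-161933860) measured 121 and 123 CPM in Scramble, 150.0 and 149 in RNF2 shRNA1, 117 and 114 in PRT4165, 111 and 113 in GW-516 and 112 and 114 in the libraries labelled RNF2 shRNA2. Here RNF2 shRNA1 was above Scramble and the remaining groups below it, close together. ATF6 rose 1.23-fold in RNF2 shRNA1 (0.30, SE 0.032, adjusted p = 1.8e-08). The falls of 0.10 in the libraries labelled RNF2 shRNA2 and of 0.12 in GW-516 passed the test (adjusted p = 0.011 and 0.0029) but not with the pairs summed (0.19 and 0.21) or without the second Scramble library (0.165 and 0.093), and the GW-516 fall also not without the first GW-516 library (0.11). PRT4165 was not called (-0.08, SE 0.032, adjusted p = 0.054).

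In RNF2 shRNA1, the group in which RNF2 mRNA was measured to fall, the response was mostly upward. Against Scramble 7 of the 10 genes rose, 1 fell and 2 were not called, where 54.7% of all 18478 genes were called, 26.2% higher and 28.6% lower. The libraries of the 2 groups did not overlap for any of the 10, nor for 77.8% of all genes. The risers, from largest to smallest, were HERPUD1, DNAJB9, HSPA5, XBP1, HSP90B1, ATF6 and DNAJC3. The median log2 fold change over the 10 was 0.32, against -0.015 over all genes tested. With the near-identical pairs summed the same counts were obtained, 7 up and 1 down, at a background of 34.3%.

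**Figure D2:**
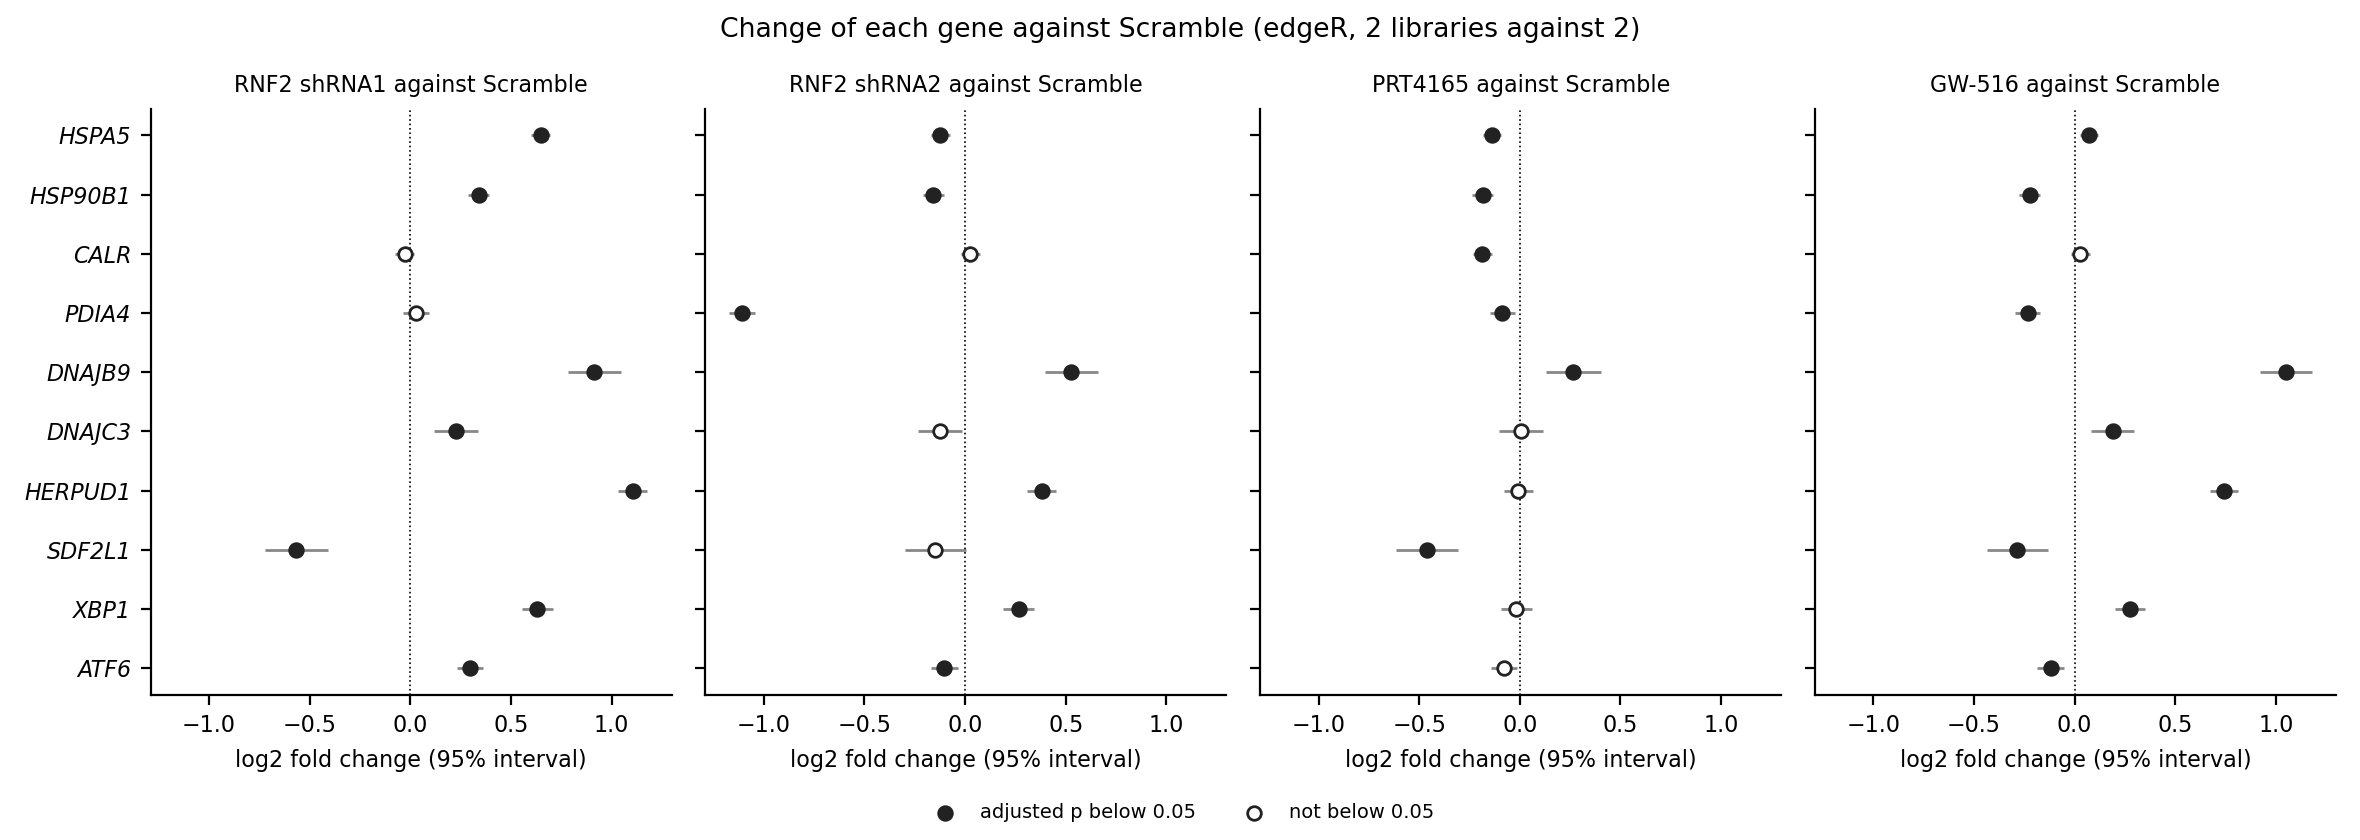
Log2 fold change of each of the 10 genes against Scramble in 4 panels, 1 per group, with 95% intervals as bars; filled points have an adjusted p below 0.05 (edgeR, 2 libraries against 2). In RNF2 shRNA1 7 filled points lie to the right and that of SDF2L1 to the left (-0.57), whereas PDIA4 lies far left only in the panel labelled RNF2 shRNA2 (-1.11).

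Lists of related genes gave the setting for this pattern. Among the stress sensors and their proteases, 4 of 9 tested genes rose and 2 fell, with ERN1, the IRE1 gene that starts XBP1 splicing, up 2.51-fold (1.33, SE 0.054) and EIF2AK3, the PERK gene, up 1.77-fold (0.83, SE 0.053). The PERK-ATF4 arm rose in 14 of 16 genes and fell in 2, with a median of 0.89; CHAC1, a glutathione-degrading enzyme, was at 2.25 and SESN2, a regulator of mTORC1, at 2.18. Other ER chaperones and co-chaperones split into 11 higher and 9 lower of 28 (CRELD1 1.22, FKBP14 1.02), and oxidative folding into 5 higher and 9 lower of 19 (TMX4 -0.70, PRDX4 -0.55). ER-associated degradation had 8 higher and 6 lower of 23 (ERLEC1 0.82, SEL1L 0.36), and translocation, glycosylation and export 10 higher and 17 lower of 31 (SRPRA 0.68, SEC24D 0.63). Cytosolic and mitochondrial heat shock genes, many of which are known to answer to HSF1, had 12 of 13 lower and 1 not called (DNAJA1 -0.65, BAG3 -0.58). Over the 7 lists without the 10 genes, 52 rose and 57 fell of 139, with a median of -0.031, beside 0.32 for the 10. With the pairs summed, fewer were called in 4 lists by more than 1.5 times: other chaperones 6 higher and 7 lower, oxidative folding 4 and 5, translocation 7 and 7, and 6 heat shock genes, all lower.

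In the libraries labelled RNF2 shRNA2, the 10 genes divided. DNAJB9, HERPUD1 and XBP1 rose and PDIA4, HSP90B1, HSPA5 and ATF6 fell, so 3 were called higher and 4 lower, at 42.1% of all genes called (21.1% higher, 21.0% lower). At 9 of the 10 the libraries did not overlap those of Scramble, as at 68.6% of all genes. Their median was -0.11, against 0.0086 over all genes. When the pairs were summed, HSPA5 and ATF6 were no longer called, which left 3 higher and 2 lower at a background of 24.1%.

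Around them, stress sensors were higher in 5 and lower in 3 of 9: EIF2AK3 was up by 0.41 and CREB3L1, a membrane-bound factor cut like ATF6, down by 0.81. The PERK-ATF4 arm had 12 higher and 2 lower of 16 (SESN2 1.09, TRIB3 0.82). Other chaperones had 7 higher and 13 lower of 28, with MANF, a secreted BiP cofactor, at -0.46 and LMAN1, a cargo receptor, at -0.39; without the second Scramble library 13 were called in place of 20, and with the pairs summed 10. Oxidative folding had 5 higher and 6 lower of 19 (TXNDC5 -0.24, QSOX1 -0.24), which shrank from 11 called to 6 and 5 without the first and the second Scramble library and to 3 with the pairs summed. Degradation had 6 higher and 5 lower of 23 (DERL1 -0.42, FAF2 -0.28), export 7 higher and 9 lower of 31 (KDELR3 -0.87, SSR4 0.34), and heat shock 4 higher and 5 lower of 13 (BAG3 0.25, HSPA9 0.17). With the pairs summed, 6 of the degradation list, 9 of the export list and 5 of these 13 heat shock genes were called.

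Under PRT4165 the changes were small, the largest being that of SDF2L1 (-0.46). SDF2L1, CALR, HSP90B1, HSPA5 and PDIA4 fell and DNAJB9 rose, which makes 1 higher and 5 lower of 10, where 41.6% of all genes were called (19.9% higher, 21.7% lower). Libraries did not overlap for 7 of the 10 and for 68.2% of all genes. The median was -0.083, against -0.012 over all genes. With the pairs summed 1 remained higher and 3 lower, at a background of 24.1%, since HSPA5 and PDIA4 were lost.

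Sensors were higher in 5 and lower in 1 of 9 under PRT4165, with CREB3L2, an ATF6-related factor, up by 0.81 and EIF2AK3 by 0.68. The chaperone list had 6 higher and 10 lower of 28, including DNAJB11, another BiP co-chaperone, at -0.41 and FKBP14 at 0.39, and oxidative folding 3 higher and 9 lower of 19 (TMX2 -0.36, ERO1A 0.33). Degradation counted 5 higher and 6 lower of 23 (EDEM1 -0.39, UBE2G2 -0.30), export 5 and 9 of 31 (SRPRB -0.38, SERP1 -0.24), the PERK-ATF4 arm 5 and 3 of 16 (VLDLR 1.30, DDIT4 1.25) and heat shock 1 and 9 of 13 (HSPA4 -0.35, DNAJA1 -0.35). In the fit on summed pairs, 10 other chaperones, 6 oxidative folding, 5 degradation and 8 export genes were called.

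Under GW-516, DNAJB9 and HERPUD1 led, and XBP1, DNAJC3 and HSPA5 rose with them, while SDF2L1, PDIA4, HSP90B1 and ATF6 fell. That is 5 higher and 4 lower of 10, where 55.5% of all genes were called (26.5% higher, 29.0% lower). All 10 had libraries apart from those of Scramble, as had 78.8% of all genes. The median was 0.049, against -0.0025 over all genes. Summing the pairs left 3 higher and 2 lower, at a background of 33.8%: DNAJB9, HERPUD1 and XBP1 up, HSP90B1 and PDIA4 down.

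The sensor list under GW-516 had 5 higher and 2 lower of 9 (EIF2AK3 0.98, CREB3L2 0.76) and the PERK-ATF4 arm 11 higher and 2 lower of 16 (ATF3 1.67, DDIT4 1.34). Degradation had 13 higher and 7 lower of 23, among them SYVN1, the HRD1 ligase that Herp scaffolds, at 0.49, and UBE2G2 at -0.49. Other chaperones counted 6 higher and 11 lower of 28 (FKBP14 0.56, DNAJB11 -0.31), oxidative folding 8 and 8 of 19 (ERO1A 0.71, QSOX1 0.41), export 13 and 9 of 31 (SEC24D 0.51, KDELR3 0.51) and heat shock 2 and 10 of 13 (HSPA4 -0.43, DNAJB1 0.41). With the pairs summed, 10 other chaperones, 8 oxidative folding, 8 degradation and 11 export genes were called. HSPA1A held no count in any library and HSPA1B at most 8, so neither was tested; the pair is near-identical in sequence. These 4 comparisons share the Scramble libraries, so likeness between them is not independent.

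**Figure D3:**
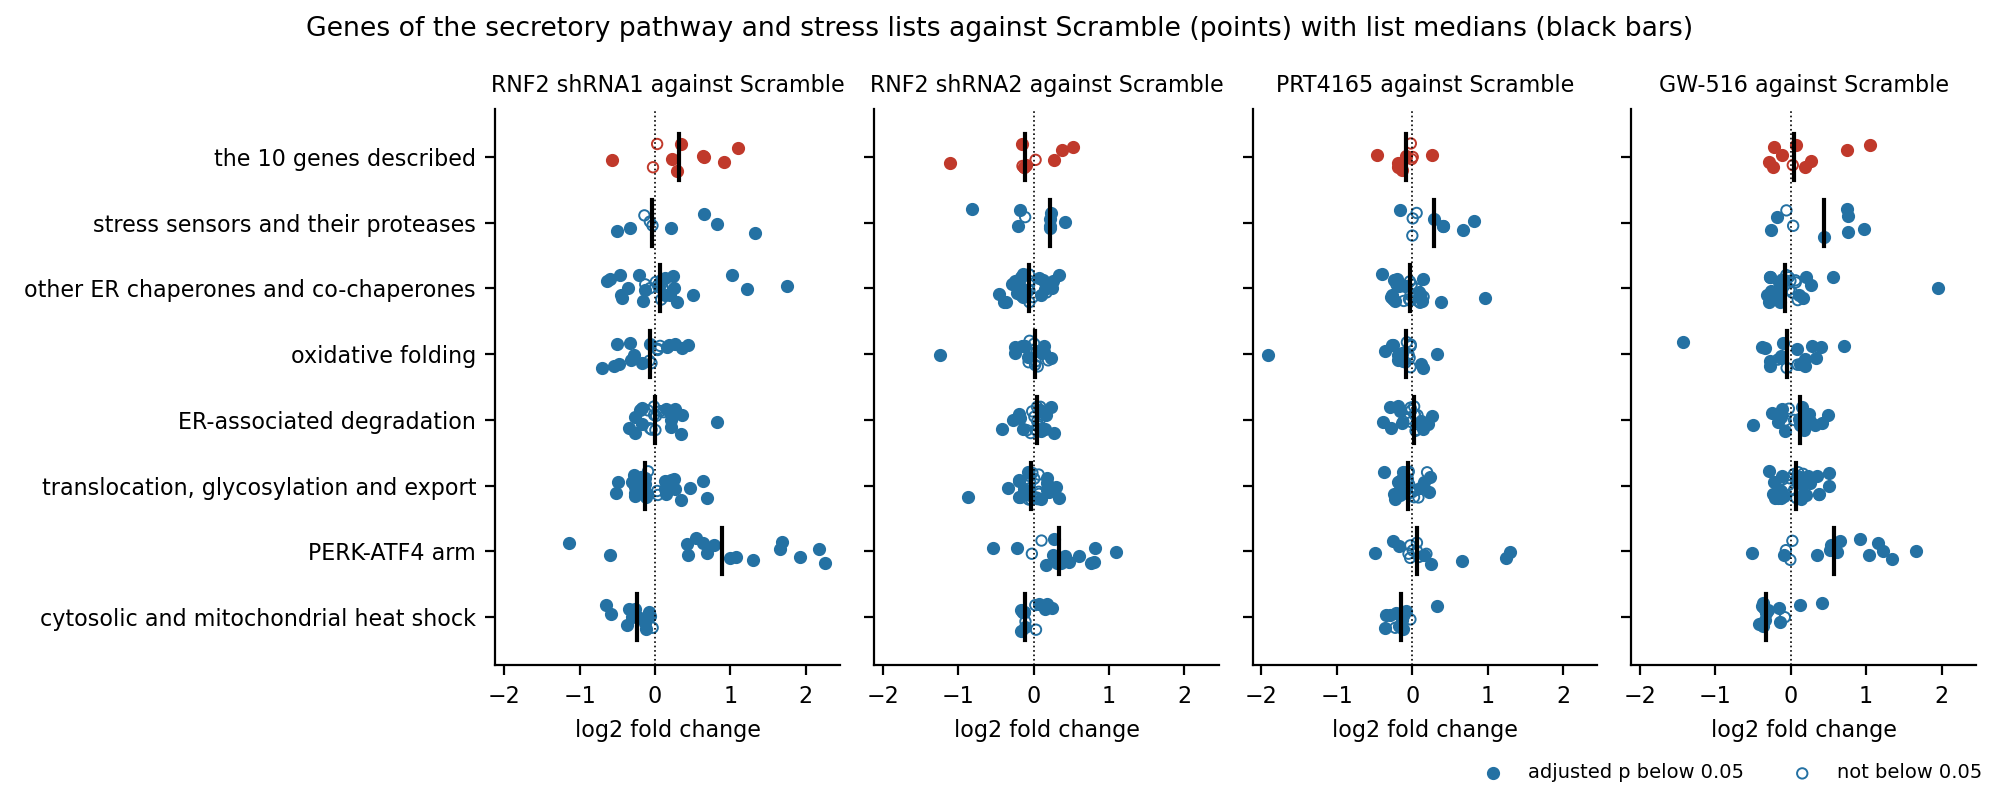
Log2 fold change against Scramble of the 10 genes (red) and of the tested genes of 7 related lists (blue) in 4 groups; filled points have an adjusted p below 0.05 and black bars are list medians. In RNF2 shRNA1 the bar of the PERK-ATF4 arm stands at 0.89 and that of the 10 genes at 0.32, while the bars of the other chaperone, oxidative folding, degradation and export lists lie nearer 0.

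The hairpin groups were also compared directly. In the libraries labelled RNF2 shRNA2, 8 of the 10 genes were lower than in RNF2 shRNA1 and 2 higher, where 59.2% of all genes were called (29.9% higher, 29.2% lower). The libraries did not overlap for any of the 10, nor for 77.2% of all genes. PDIA4 differed most (-1.14, SE 0.031), followed by HSPA5 (-0.77, SE 0.023), HERPUD1 (-0.72, SE 0.034) and HSP90B1 (-0.50, SE 0.025). ATF6 (-0.40), DNAJB9 (-0.39), XBP1 (-0.37) and DNAJC3 (-0.35) were each lower too. SDF2L1 was higher (0.42, SE 0.074, adjusted p = 7.1e-05), opposite to the rest. CALR (0.05, SE 0.023, adjusted p = 0.049) was called only narrowly; leaving out any of the 4 libraries ended that call (adjusted p = 0.14 to 0.33), as did every other alternative run except limma-voom. The median was -0.39, against 0.012 over all genes, and with the pairs summed 8 were lower and 1 higher at a background of 43.4%.

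The compounds, both applied for 48 hours at doses the labels do not give, differed from each other at several of the genes. GW-516 was above PRT4165 at 6 of the 10 and below at 1, where 41.1% of all genes were called (18.1% higher, 23.0% lower). Of the 10, 9 did not overlap between the compounds, and of all genes 69.5%. DNAJB9 (0.79, SE 0.061) and HERPUD1 (0.75, SE 0.035) differed most, XBP1 (0.29, SE 0.036), CALR (0.21, SE 0.023), HSPA5 (0.21, SE 0.023) and DNAJC3 (0.18, SE 0.052) followed, and PDIA4 was lower (-0.15, SE 0.030). The DNAJC3 call was lost without the second PRT4165 library (adjusted p = 0.056), without the first GW-516 library (0.16) and with the pairs summed (0.091), and the PDIA4 call with the pairs summed (0.074). HSP90B1 (-0.04, interval -0.09 to 0.01) and ATF6 (-0.04, interval -0.11 to 0.03) were not called, although HSP90B1 was without the second PRT4165 library (-0.08, adjusted p = 0.012). SDF2L1 (0.18, interval 0.02 to 0.33, adjusted p = 0.061) was called in 6 alternatives, one of them without the second PRT4165 library (0.26, adjusted p = 0.021). The median was 0.20, against -0.0019 over all genes, and with the pairs summed 5 were called, all higher, at a background of 22.4%.

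**Figure D4:**
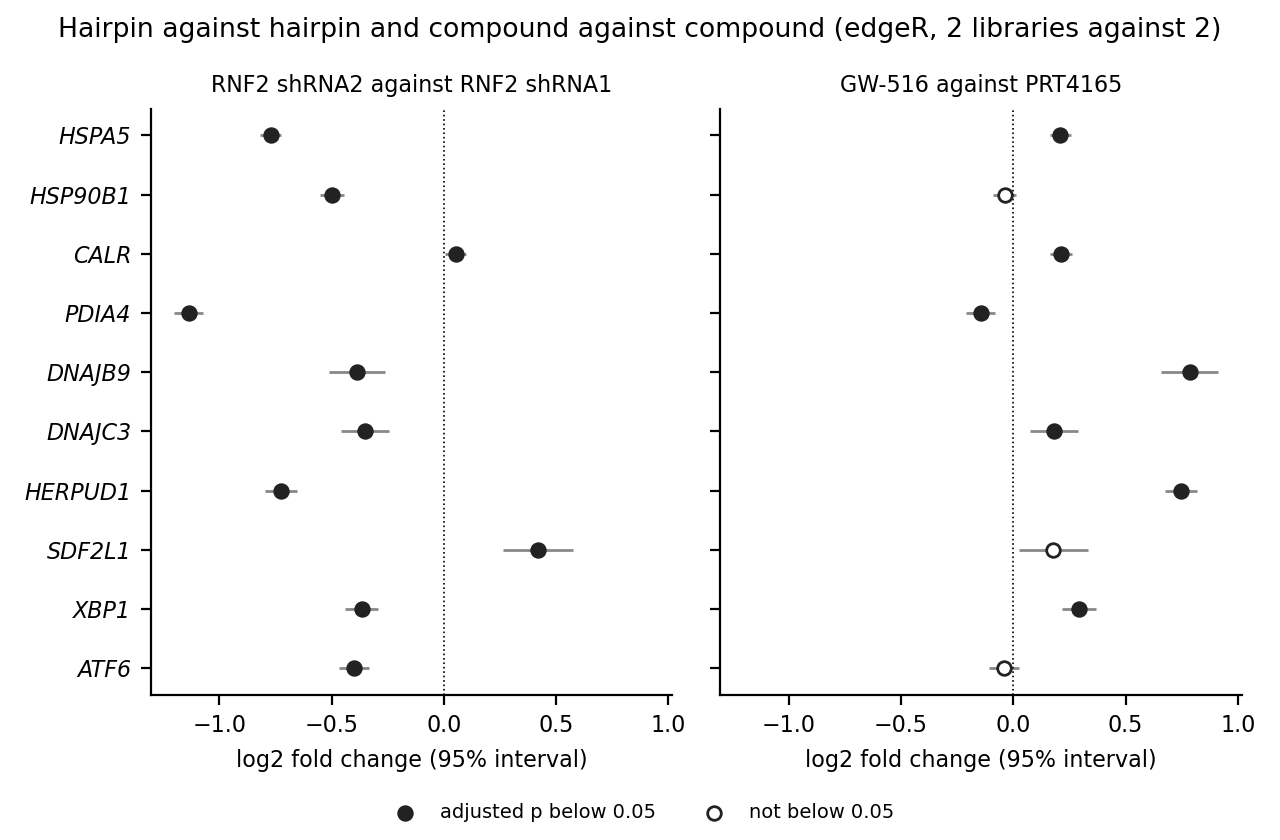
Log2 fold change of each of the 10 genes in the libraries labelled RNF2 shRNA2 against RNF2 shRNA1 (left) and in GW-516 against PRT4165 (right), with 95% intervals; filled points have an adjusted p below 0.05 (edgeR, 2 libraries against 2). On the left 8 points lie below 0, with PDIA4 lowest at -1.14; on the right DNAJB9 (0.79) and HERPUD1 (0.75) lie farthest above 0.

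Across the 10 libraries, HSPA5 was tracked most closely by ZFPL1 (Pearson's r = 0.994), FGFBP1 (0.986), RPS6KC1 (0.985), ERG28 (0.984) and MERTK (0.984), the highest of 5116 genes searched. For XBP1 the highest were AKAP8L (0.980), CPEB3 (0.978), SH3TC2 (0.976), TENT5C (0.975) and OASL (0.972). All 10 of those genes were highest in RNF2 shRNA1, and the points share 5 groups of 2 libraries, so these values describe likeness over 5 conditions. Among the 10 genes themselves, HSP90B1 and ATF6 were most alike (r = 0.99), followed by HERPUD1 and XBP1 (0.96) and HSPA5 and ATF6 (0.93). SDF2L1 correlated negatively with 8 of the other 9 (-0.60 to -0.35) and positively with CALR (0.51).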

How the data were processed

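RNA-seq was measured in 10 PC3 libraries, 2 in each of 5 labelled groups. The authors deposited raw counts per gene, 1 table per library. Per the file headers, featureCounts 1.4.3-p1 assigned reads to GENCODE 18 genes with strand option 2 and without a read-pair option, so both ends of a pair were counted and counting noise is understated. Per the submitters' processing notes, the tools were STAR, of no stated version, and DESeq2 1.8.1, neither with a role, and the build hg19 (GRCh37).

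Counts were tested with edgeR 4.0.16 (R 4.3.3): TMM factors (0.972 to 1.05), a minimum count of 10 in filterByExpr, a model of all 10 libraries with a mean for each group, which leaves 5 residual degrees of freedom, and the robust quasi-likelihood F test. In 6 comparisons, the two-sided p-values of 18478 genes were adjusted by the Benjamini-Hochberg method. Genes were called at an adjusted p below 0.05. The fit was tested on simulated data. CPM are TMM-normalized, RPKM divide them by exonic length, and standard errors derive from the F statistic. The near-identical pairs summed to 1 sample leave 7 samples and 2 residual degrees of freedom, and 20352 genes.

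Replicate numbers in the labels paired no samples: deviations of same-numbered libraries from their group means correlated between -0.097 and 0.018. The 10 genes and the 7 lists of related genes (143 entries) were chosen with earlier results of these data known. The text names the 10 genes, RNF2 and BMI1, up to 2 called genes per list and comparison with the largest change at 5 CPM or more, and the 5 genes best correlated with HSPA5 and with XBP1 (log2 of CPM + 1, mean of at least 5 CPM, range of group means of at least 0.5). Alternatives were RLE factors, DESeq2 1.42.0, limma-voom 3.58.1, other filters, only the groups compared, a replicate block, each library left out, summed pairs, no libraries labelled RNF2 shRNA2, and an adjusted p below 0.01. Promoter windows came from RefSeq (GRCh38.p14); motif matches were by exact letters.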

Additional observations from a re-analysis of the deposited data

Results flagged for a closer look

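For all 10 genes the effect in the libraries labelled RNF2 shRNA2 differed from that in RNF2 shRNA1 by the direct test of the difference (edgeR, adjusted p below 0.05), although both groups carry a hairpin named for RNF2. In the same contrast 59.2% of all 18478 genes were called. The effect of RNF2 shRNA2 minus that of RNF2 shRNA1, on the log2 scale, was -1.14 for PDIA4, -0.77 for HSPA5, -0.72 for HERPUD1, -0.50 for HSP90B1, -0.40 for ATF6, -0.39 for DNAJB9, -0.37 for XBP1 and -0.35 for DNAJC3. It was 0.42 for SDF2L1 and 0.05 for CALR, the last of which was not called with the near-identical pairs summed (adjusted p = 0.68). RNF2 itself differed by 1.52 and BMI1 by -2.01 in the same contrast, and their part in these differences was not tested.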

How the results depend on the processing

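Of 820 alternative values of the fold changes, 752 kept their direction and side of the threshold, 38 lost the call, 15 gained it and 15 changed sign. The sign changes all concerned values near 0 that were not called: HERPUD1 in PRT4165 with RLE factors (0.0049), DESeq2 (0.0048), no filter (0.0057), 1 CPM in 2 libraries (0.0011), only the groups compared (0.014) and without the libraries labelled RNF2 shRNA2 (0.0044), and 0.00022 to 0.012 when leaving out 1 library. XBP1 in PRT4165 reached 0.0029 with only the groups compared. Leaving out 1 library moved XBP1 in PRT4165 from -0.045 to 0.031, DNAJC3 in PRT4165 from -0.021 to 0.057 and HSP90B1 in GW-516 against PRT4165 from -0.076 to 0.0039. The near-identical pairs summed, with fewer samples, lowered the genes called from 9 to 5 of 10 for GW-516 against Scramble. The share of all genes called in that comparison went from 55.5% to 33.8%. Over all genes the count became 4902 (from 7772) in the libraries labelled RNF2 shRNA2, 4911 (from 7695) in PRT4165 and 4555 (from 7594) between the compounds. These counts are out of 20352 genes with the pairs summed and 18478 without. The replicate block changed the side of the threshold for 1 of 60 values, that of CALR between the hairpin groups (adjusted p = 0.067). Each library held 65877850 or more counts, and 2 libraries per group limit how well the spread is known.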

Other observations

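PDIA4 was set beside its relatives and neighbours after its values were seen. In the libraries labelled RNF2 shRNA2, of 2737 genes with at least 100 CPM in either group, 6 including PDIA4 fell at least as far from Scramble. In the oxidative folding list, the protein disulfide isomerase genes PDIA6 and P4HB were there at 0.08 and 0.14 (log2), both called higher. PDIA3 at -0.07 and PDIA5 at -0.11 were called lower, as was TXNDC5 of the same list at -0.24. None of these calls held with the near-identical pairs summed. Of the 6 nearest tested genes on chromosome 7, 3 on each side, the log2 fold changes ran from -0.18 to 0.41, beside -1.11 for PDIA4. Among them, CNTNAP2 and RN7SL521P measured 0.095 and 0.10 CPM in Scramble (SE 0.67 and 0.81), too scarce to show a fall like that of PDIA4. The highest value, that of ZNF425 (SE 0.17), came from 2.79 CPM in Scramble. CUL1 alone of these 6 was called, and it fell by 0.18 (SE 0.031, adjusted p = 5.6e-05), from 189 CPM in Scramble to 167.

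Beyond the 10 genes, 25 tested genes had an ERSE or ERSE-II in their promoter window. FRG2B, among these 25, had 0.23 CPM in GW-516 and no counts in any other group, so it passed the filter only through GW-516. It is counted below as higher in GW-516 (log2 fold change 7.16). In RNF2 shRNA1 its value is 0.0 because neither group held counts, and that is also the value of the median there. In RNF2 shRNA1 6 of them rose and 9 fell from Scramble, which is 60% called beside 54.7% of all genes, with a median log2 fold change of 0.00; with the near-identical pairs summed 4 rose and 6 fell. In PRT4165 5 rose and 11 fell (64.0%, beside 41.6%, median -0.10), or 4 and 8 with the pairs summed. GW-516 gave 5 higher and 9 lower (56.0%, beside 55.5%, median -0.060), or 3 and 7. The libraries labelled RNF2 shRNA2 gave 5 higher and 7 lower (48.0%, beside 42.1%, median -0.015), or 2 and 5.

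The PERK gene EIF2AK3 was called higher than Scramble in all 4 other groups, from 0.41 to 0.98, as was ERN1, from 0.22 to 1.33. Both were picked from the 9 tested genes of the stress sensor list. In these 4 comparisons, which share the Scramble libraries, 19.9% to 26.5% of all genes were called higher. The share of all genes called higher in all 4 was not computed.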
